A study of Macaca mulatta with 449 samples.

Results

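The hippocampus was compared with the neocortex in the brains of 8 rhesus macaques. The hippocampal side held the dentate gyrus (DG), CA1 and CA3, numbered 45, 46 and 47 among the dissected regions, and the neocortical side held 31 cortical sub-regions, numbered 2 to 27 and 29 to 33. Of the 408 RNA-seq samples with gene counts, 272 belonged to this comparison, of which 24 were hippocampal and the others neocortical. Within each animal the counts of the samples of a side were summed, so that the animal was the replicate (n = 8) and each hippocampal sum was set against the neocortical sum of the same animal. The animals were 4 females and 4 males with no treatment or genetic change named in the labels. Rhesus 4, 7, 8 and 10 were 3.2 to 5 years old and Rhesus 2, 3, 6 and 11 were 9.8 to 10 years old, with both sexes in each age group. Samples were pieces of dissected tissue that held neurons, glia and vessels together, and the cortical side also took in the insula, the cingulate gyrus and the parahippocampal gyrus.

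The hippocampus is the archicortex of the medial temporal lobe and is known for its part in forming memories of events and places. Granule cells of the DG receive input from the entorhinal cortex and send mossy fibres to the pyramidal cells of CA3, which project in turn to the pyramidal cells of CA1. It has a single principal cell layer, whereas the neocortex has several layers whose projection neurons are specified by factors such as CUX2 and RORB. The DG is also known as a site where neurons can be generated after birth, and the whole structure borders the lateral ventricle with its ependyma and choroid plexus.

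Depth was 8143457 to 13795178 counts per hippocampal library and 7784678 to 31083490 per neocortical library. The sums held 26206156 to 36624969 counts on the hippocampal side and 297336760 to 428597814 on the neocortical side, so a low level was measured more coarsely in the hippocampus. Each of the 24 hippocampal libraries was most similar to another hippocampal library and each neocortical library to another neocortical one, and no 2 libraries were identical. In the neocortex, 3 libraries of Rhesus 4 and 1 of Rhesus 8 stood apart from the other libraries of their side.

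Sub-region markers differed between the DG and most CA libraries, but no list separated the sub-regions library by library. Levels are given as CPM, counts scaled to library sizes that carry TMM factors, and a marker level is the mean of log2(CPM + 1) over the genes of a list. The 9 CA1 markers measured had levels of 2.66 to 3.87 in the DG, 3.45 to 5.07 in CA1 and 3.36 to 5.19 in CA3. The highest DG value was that of Rhesus 2 alone, and the other 7 DG libraries were at 2.66 to 3.20. The lowest CA values were those of CA1 of Rhesus 11 (3.45) and CA3 of Rhesus 8 (3.36), which lay between those 7 DG libraries and the other CA libraries (3.98 to 5.19). The 11 dentate granule cell markers overlapped as well, at 4.2 to 4.74 in the DG, 3.65 to 4.24 in CA1 and 3.73 to 4.44 in CA3. The highest CA3 value was that of Rhesus 8 (4.44), above the DG of the same animal (4.23). The highest CA1 value was that of Rhesus 11 (4.24), close to those of Rhesus 6 and Rhesus 7 (4.21 each) and below its DG (4.61). FIBCD1, a CA1 marker that encodes a receptor for acetylated compounds, was at 3.42 CPM in the CA1 library of Rhesus 11 and at 3.94 CPM in the CA3 library of Rhesus 8, against 15.6 to 74.7 CPM in the other 14 CA libraries. The DG library of Rhesus 2 had 16.2 CPM of FIBCD1, against 0.724 to 3.90 CPM in the other DG libraries. The 12 CA2 and CA3 markers gave overlapping ranges, 4.77 to 5.13 in the DG, 4.74 to 5.27 in CA1 and 4.76 to 5.28 in CA3. These 3 libraries thus stood apart from the others of their label, and the cause was not tested. Counts for single sub-regions are therefore also given without Rhesus 8 and Rhesus 11, and without Rhesus 2.

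**Figure D1:**
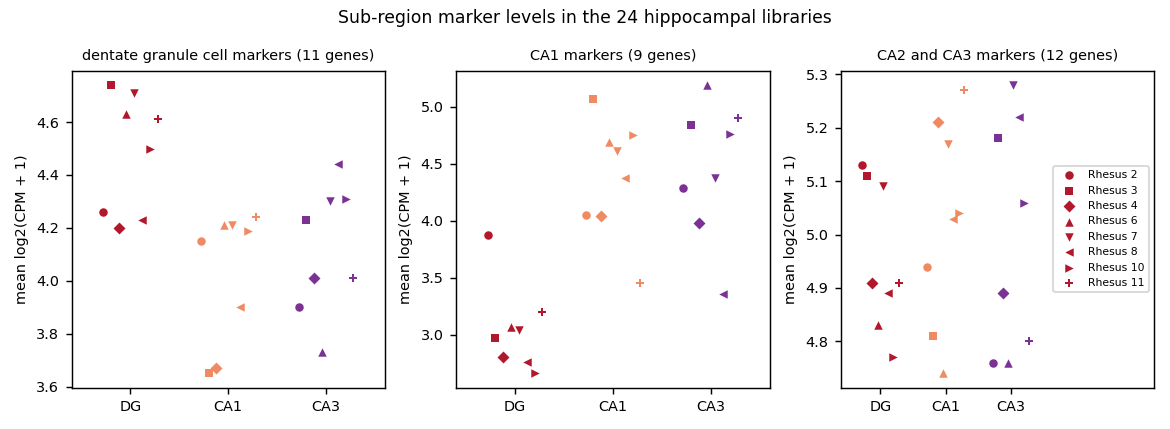
Mean log2(CPM + 1) of 3 marker lists (vertical axes) in each of the 24 hippocampal libraries, by sub-region (horizontal axes), with 1 symbol per animal. The CA1 markers lie at 2.66 to 3.20 in 7 DG libraries and at 3.87 in that of Rhesus 2, and the CA1 library of Rhesus 11 (3.45) and the CA3 library of Rhesus 8 (3.36) lie below the other CA libraries.

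Cell type markers moved with the side. The 10 pan-neuronal markers had a mean log2(CPM + 1) of 8.48 ± 0.10 (SD, n = 8) in the hippocampus and 9.28 ± 0.04 in the neocortex, a difference of -0.80 that was lower in the hippocampus in 8 of 8 animals (exact two-sided sign-flip permutation test, p = 0.00781, the smallest that 8 pairs allow). Mean levels of glial markers were higher in the hippocampus by the same exact test, each at p = 0.00781. The difference was 0.53 for 7 oligodendrocyte markers and 0.33 for 6 markers of their precursors. It was 0.36 for 8 astrocyte markers and 0.75 for 3 microglia markers. Single precursor markers had log2 fold changes of -0.08 to 1.58 (median 0.18). Those of single astrocyte markers ran from -0.50 to 1.48 (median 0.33). The lowest value was 0.38 among oligodendrocyte and 0.66 among microglia markers. Ependymal markers were higher by 0.77 (6 genes) and choroid plexus markers by 0.71 (7 genes), each at p = 0.00781 in the exact test. The difference was -0.42 for 8 endothelial and pericyte markers and -0.40 for 11 meningeal fibroblast markers, lower in 8 of 8 animals at the same p of 0.00781 in this exact test. With a pseudocount of 0.1 in place of 1, the difference was 1.4 for choroid plexus markers and -0.73 for meningeal fibroblast markers, with the same directions. The mean level of the 3 blood markers measured was higher by 0.49 (exact sign-flip test, p = 0.00781). Their single log2 fold changes ran from -0.17 to 1.71 (median 0.44). Summed levels were 7624 to 9828 CPM for the pan-neuronal markers in the hippocampus and 12030 to 13730 CPM in the neocortex, 3025 to 5886 against 2547 to 3330 CPM for oligodendrocyte markers, and 48.4 to 89.9 against 23.8 to 50.6 CPM for choroid plexus markers. Of the pan-neuronal list SLC17A7, the vesicular glutamate transporter of cortical neurons, was the 1 gene with a clearly positive log2 fold change (0.89 ± 0.05). In bulk tissue a smaller number of cells of a type and less RNA per cell cannot be told apart, and the part of these shifts in the gene differences below was not tested.

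Of 18638 genes tested with edgeR's quasi-likelihood test, 11569 differed at a Benjamini-Hochberg adjusted p (FDR) below 0.05, and 2518 (13.5%) were called, that is they also differed by more than 2-fold. The hippocampus was higher for 1162 genes (6.23%) and lower for 1356 (7.28%), and 2237 of the 2518 moved the same way in 8 of 8 animals. A log2 fold change (log2FC, hippocampus minus neocortex) above 4 was reached by 62 of the higher genes, and one below -4 by 80 of the lower ones. The median log2FC over all tested genes was 0.00. Against the parahippocampal gyrus alone, the cortical sub-region that adjoins the hippocampus, 866 genes were higher and 844 lower.

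**Figure D2:**
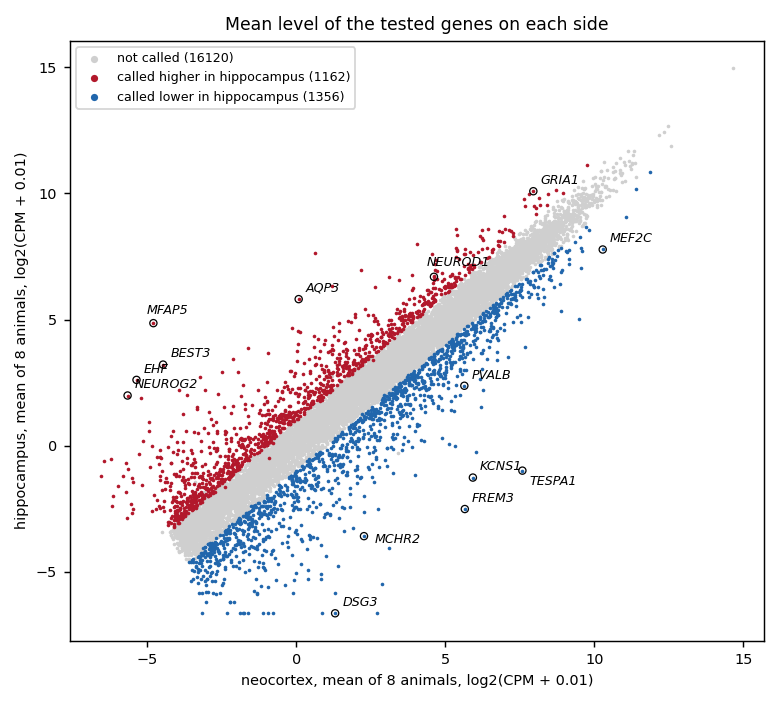
Mean level over the 8 animals in the neocortex (horizontal axis) and in the hippocampus (vertical axis), both as log2(CPM + 0.01), for the 18638 tested genes. Red points are the 1162 genes called higher in the hippocampus, blue points the 1356 called lower, and circled points are named genes such as MFAP5 and TESPA1, which lie far from the diagonal on opposite sides.

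MFAP5, a microfibril-associated glycoprotein of elastic fibres, had the largest positive log2FC among the named genes. Its level in the 8 hippocampal sums was 3.84 CPM at the lowest, 30.1 at the median and 59.7 at the highest, and in the neocortical sums 0, 0.0127 and 0.137 CPM. The sides did not overlap, with the lowest hippocampal sum in Rhesus 4 and the highest in Rhesus 2. The log2FC was 10.11 ± 0.39 (SE, FDR 6.59e-11), and the pooled counts, 7358 against 76, gave a ratio of 1039 (95% exact interval for counting error, 829.0 to 1320). MFAP5 differed little between sub-regions, with means of 27.3 CPM in the DG, 33.4 in CA1 and 28.4 in CA3 (FDR for a difference among them, 0.51), and much between libraries, from 0.189 CPM in CA3 of Rhesus 4 to 72.2 CPM in CA1 of Rhesus 2. Of the 24 hippocampal libraries 22 lay above the highest neocortical one (1.36 CPM), and the exceptions were the DG (1.21 CPM) and CA3 of Rhesus 4. The highest mean of MFAP5 in the brain regions with gene counts outside both sides was 0.493 CPM, in the cerebellar cortex.

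The other 11 of the 12 genes with the largest log2FC in favour of the hippocampus included transcription factors, channels and receptors. EHF, an ETS family factor known from epithelia, ranged from 5.02 to 7.31 CPM (median 6.08) in the hippocampal sums and from 0 to 0.0367 CPM (median 0.0139) in the neocortical ones. Its log2FC was 8.67 ± 0.30 (FDR 2.35e-11), and every hippocampal sum and library lay above every neocortical one. NEUROG2, a proneural basic helix-loop-helix factor, ranged from 2.71 to 5.03 CPM (median 4.07) against 0 to 0.0262 CPM (median 0.0110), with a log2FC of 8.56 ± 0.32. Its libraries did not overlap either. OTX2, a homeobox factor also made by choroid plexus epithelium, had a log2FC of 6.48 ± 0.27, with 0.654 to 4.92 CPM (median 1.25) against 0 to 0.0845 CPM (median 0.0152). The highest OTX2 level in these libraries was 9.33 CPM, in CA3 of Rhesus 8, the CA3 library with the lowest level of CA1 markers.

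BEST3, a bestrophin family chloride channel, ranged from 3.25 to 13.3 CPM (median 9.38) in the hippocampus and from 0.00654 to 0.0565 CPM (median 0.0387) in the neocortex (log2FC 7.99 ± 0.27). AQP3, an aquaglyceroporin, ranged from 34.6 to 77.9 CPM (median 52.3) against 0.570 to 1.44 CPM (median 1.01), a log2FC of 5.74 ± 0.17. Neither gene overlapped between the sides, in sums or in libraries. NPFFR2, a receptor for neuropeptide FF, ranged from 6.01 to 16.9 CPM (median 9.25) against 0.0761 to 0.414 CPM (median 0.201), and GPR50, an orphan relative of the melatonin receptors, from 0.970 to 10.7 CPM (median 3.83) against 0.0164 to 0.365 CPM (median 0.0690). Their log2FC were 5.65 ± 0.18 and 5.61 ± 0.33 and their sums did not overlap, but single libraries of GPR50 did. The remaining genes were FAM216B (6.38 ± 0.20), MAB21L2 (6.01 ± 0.17), the cytokine gene IL7 (5.88 ± 0.23) and CROCC2 (5.72 ± 0.29), a relative of the ciliary rootlet protein rootletin.

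All 12 were past the threshold against the neocortex in the DG, in CA1 and in CA3, 3 comparisons that share the same 8 neocortical sums. The 12 genes had been chosen by their folds in sums of these same hippocampal libraries, so this outcome was largely fixed by the choice. They were not even within the hippocampus, since 7 of the 12 differed by more than 2-fold among the sub-regions at FDR below 0.05, against 732 of 15174 genes (4.82%) over the whole table. In these 7 the DG was the highest. BEST3 had a mean of 17.1 CPM in the DG, 4.32 in CA1 and 6.43 in CA3 (FDR 1.13e-05). MAB21L2 had 11.7, 3.58 and 4.47 CPM, EHF 10.1, 4.43 and 3.81 CPM, CROCC2 12.8, 4.87 and 4.96 CPM, GPR50 7.65, 3.50 and 2.62 CPM, OTX2 3.02, 0.825 and 1.98 CPM, and FAM216B 6.98, 3.86 and 2.97 CPM. Of the 12 genes 4 had a higher mean elsewhere in the brain than in any hippocampal sub-region. GPR50 reached a mean of 308 CPM in the pituitary, MAB21L2 85.9 CPM in the pons, OTX2 68.7 CPM in the thalamus and CROCC2 15.1 CPM in the nucleus accumbens.

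**Figure D3:**
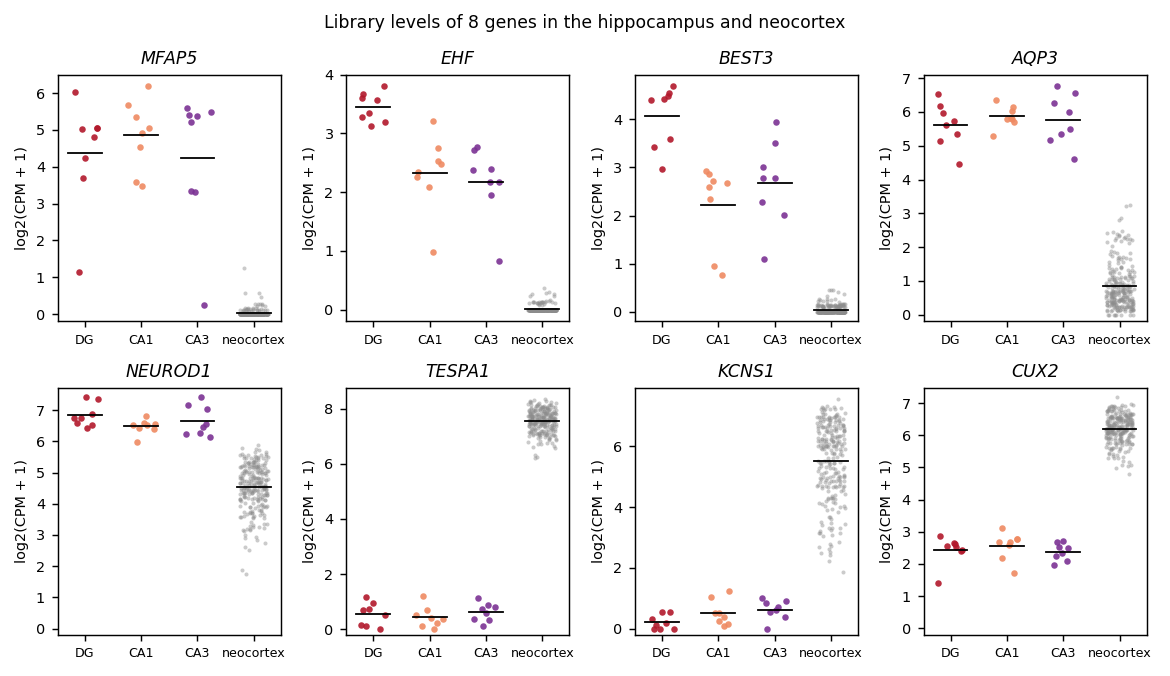
Level of 8 genes as log2(CPM + 1) (vertical axes) in each library of the DG, CA1 and CA3 (8 each) and in each neocortical library. Points are libraries and bars are group means. MFAP5 falls to 1.21 and 0.189 CPM in the DG and CA3 of Rhesus 4, while no hippocampal library of TESPA1 exceeds 1.28 CPM and no neocortical one is below 72.9 CPM.

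NEUROD1, a basic helix-loop-helix factor of granule cell differentiation, was a gene of smaller fold that was nevertheless cleanly separated. Its sums ranged from 76.2 to 150 CPM (median 94.3) in the hippocampus and from 20.2 to 34.3 CPM (median 22.6) in the neocortex, a log2FC of 2.07 ± 0.07 (FDR 3.21e-11). Each hippocampal library (62.3 to 172 CPM) lay above each neocortical library (2.39 to 57.5 CPM). The DG had 117 ± 32.4 CPM (SD, n = 8), CA1 89.5 ± 14.1 and CA3 105 ± 37.1, a spread past the FDR (0.0455) but not the 2-fold threshold. NEUROD1 was not highest in the hippocampus, since the vermis of the cerebellum had a mean of 356 CPM.

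Among genes lower in the hippocampus, TESPA1, known as a gene of T cell development, was at 0.108 to 0.991 CPM (median 0.451) in the hippocampal sums and at 145 to 237 CPM (median 190) in the neocortical ones. The log2FC was -8.67 ± 0.20 (FDR 1.13e-12), and the gap was wide in single libraries too. FREM3, an extracellular matrix protein gene, ranged from 0.0935 to 0.405 CPM (median 0.135) against 41.2 to 66.4 CPM (median 48.1), with a log2FC of -8.23 ± 0.12. KCNS1, a modulatory subunit of voltage-gated potassium channels, ranged from 0.0624 to 0.729 CPM (median 0.445) against 22.1 to 92.4 CPM (median 61.8), a log2FC of -7.22 ± 0.12. For FREM3 the sums did not overlap but single libraries did, and its cortical means ran from 3.03 CPM in the inferior occipital gyrus to 120 CPM in the temporal polar gyrus. KCNS1 had the opposite extremes, 6.48 CPM in the temporal polar gyrus and 110 CPM in the anterior superior occipital gyrus. TESPA1 was lowest in the temporal polar gyrus as well, at 103 CPM, and outside both sides it reached 155 CPM in the putamen.

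MCHR2, a receptor for melanin-concentrating hormone, was at 0 to 0.121 CPM (median 0.0841) in the hippocampus and at 3.16 to 5.85 CPM (median 4.82) in the neocortex, with a log2FC of -6.01 ± 0.24 (FDR 8.72e-11). The sides did not overlap. Its pooled counts were 19 in the hippocampus and 13429 in the neocortex, a ratio of 65.9 in favour of the neocortex (42.2 to 109). MEPE, a matrix phosphoglycoprotein known from bone, ranged from 0.162 to 2.39 CPM (median 0.699) against 41.3 to 97.5 CPM (median 61.3), and FAP, a membrane serine protease, from 0.0595 to 0.248 CPM (median 0.168) against 5.63 to 7.95 CPM (median 6.53). Their log2FC were -6.32 ± 0.28 and -5.33 ± 0.15, and the sums of neither overlapped between the sides.

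The other 6 of the 12 lower genes had almost no reads in the hippocampus. DSG3, a desmosomal cadherin, had 0 counts in all 8 hippocampal sums and 1.302 to 4.203 CPM (median 2.18) in the neocortical ones, so it was at least 26.2-fold lower when set against 3 counts per sum. SPINK5, a protease inhibitor gene, had 2 hippocampal counts in all and a ratio of 317 in favour of the neocortex (87.7 to 2618). The corresponding ratios were 121 for GSG1L2 (47.3 to 445), 90.6 for the keratin gene KRT80 (38.8 to 279), 82.7 for PF4V1 (32.3 to 304) and 56.4 for the myosin light chain gene MYL10 (25.9 to 154). PF4V1 has a near-identical copy, PF4, and its count is uncertain. Of all 1356 lower genes, 136 had at most 3 counts in every hippocampal sum.

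Transcription factors of the hippocampus and of neocortical neurons were not simply opposed. The counts of called genes in this list and in those below stand beside 6.23% higher and 7.28% lower over all tested genes. Of 13 tested hippocampal identity factors, 4 were called higher (NEUROD1, PROX1, ZBTB20 and LHX9), 1 lower (MEIS2) and 8 were not called, with a median log2FC of 0.51. PROX1, which specifies DG granule cells, ranged from 9.35 to 36.3 CPM (median 26.1) against 1.82 to 6.14 CPM (median 4.58), a log2FC of 2.49 ± 0.08, without overlap of the sums. Within the hippocampus PROX1 was highest in the DG (mean 37.96 CPM, with 16.5 in CA1 and 18.1 in CA3). Outside both sides it reached a mean of 35.9 CPM in the corpus callosum. ZBTB20 (1.86 ± 0.21), a zinc finger factor of hippocampal pyramidal neurons, and LHX9 (1.61 ± 0.17), a LIM homeobox factor, were at low counts. The mean of ZBTB20 was higher in the corpus callosum (4.39 CPM) than in the DG (3.78 CPM), CA1 (2.50 CPM) or CA3 (2.68 CPM). MEIS2, a TALE homeobox factor, was at 9.57 to 21.9 CPM (median 11.7) against 61.6 to 82.3 CPM (median 72.9), a log2FC of -2.56 ± 0.11, and within the hippocampus it was lowest in the DG (3.60 CPM, with 17.2 in CA1 and 18.3 in CA3). LHX2, a selector gene of the cortical primordium, had a log2FC of 0.03 ± 0.05 (FDR 0.645).

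Of 27 tested factors and markers of neocortical neurons, 9 were called lower, 5 higher and 13 were not called (median log2FC -0.69). CUX2, an upper layer factor, ranged from 2.26 to 6.01 CPM (median 4.70) against 62.6 to 89.0 CPM (median 78.4) (log2FC -4.06 ± 0.09). For CUX2 each hippocampal library lay below each neocortical one. FOXP2, a factor of deep layer neurons, had a log2FC of -4.61 ± 0.27, RORB of layer 4 had -3.79 ± 0.11, MEF2C had -2.50 ± 0.06 and TBR1, a factor of corticothalamic neurons, had -1.76 ± 0.07. MEF2C was highest in the DG, with 295 CPM against 170 in CA1 and 198 in CA3, and so was TBR1, with 25.8, 13.1 and 14.8 CPM.

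The 5 members of that list that were called higher in the hippocampus were all developmental factors of forebrain projection neurons. BHLHE22 ranged from 43.3 to 96.1 CPM (median 79.7) against 10.3 to 19.8 CPM (median 15.1), a log2FC of 2.33 ± 0.11. BCL11B (2.09 ± 0.10) and FEZF2 (2.06 ± 0.08), known from subcerebral projection neurons of layer 5, NEUROD6 (1.59 ± 0.08) and NEUROD2 (1.14 ± 0.07) followed. The sums of none of these 5 genes overlapped. BCL11A, the paralogue of BCL11B, had a log2FC of -0.03 ± 0.04 (FDR 0.548).

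**Figure D4:**
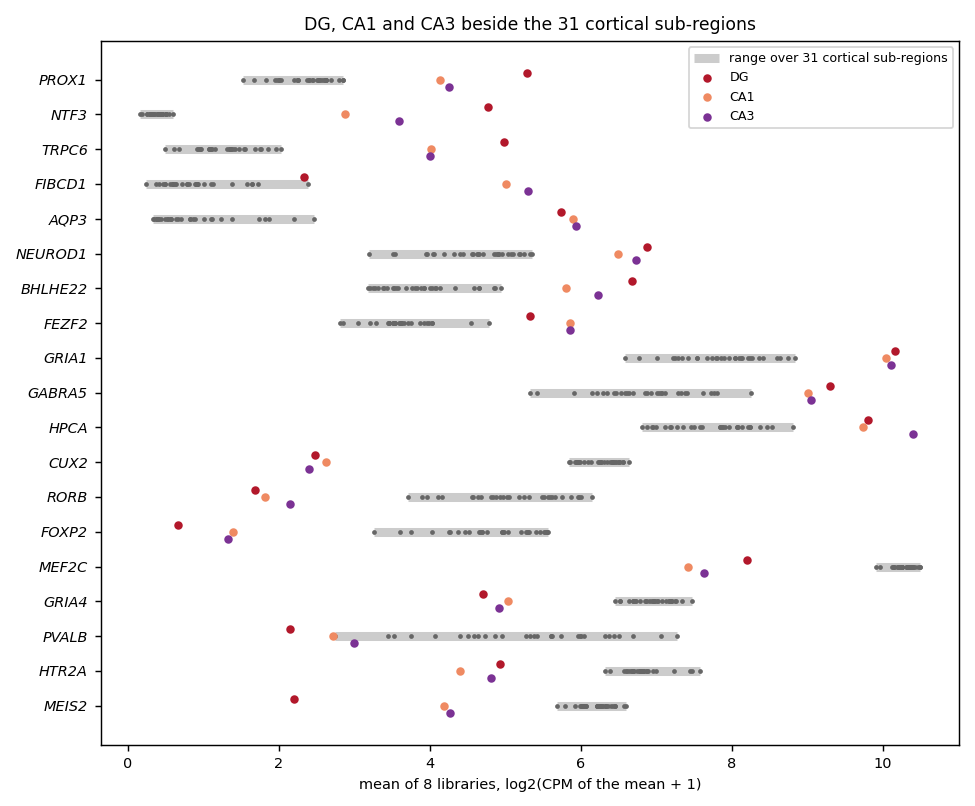
Mean level of 19 genes (horizontal axis, log2 of mean CPM + 1) in the DG, CA1 and CA3 (coloured points, 8 libraries each) beside the means of the 31 cortical sub-regions (grey points, with a bar for their range). For CUX2 all 3 hippocampal means lie below the cortical range, for GRIA1 and NEUROD1 above it, and for FIBCD1 the DG mean (4.03 CPM) lies inside it.

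Markers of single hippocampal fields were compared next. Of 11 dentate granule cell markers tested, 7 were called higher than in the neocortex, 1 lower (LCT) and 3 were not called, with a median log2FC of 1.23. TRPC6, a cation channel, ranged from 14.7 to 24.5 CPM (median 20.3) against 1.27 to 1.72 CPM (median 1.54), a log2FC of 3.74 ± 0.09, and its means were 30.6 CPM in the DG, 15.2 in CA1 and 15.1 in CA3. CALB1, the calcium buffer calbindin, had a log2FC of 1.63 ± 0.12 and NPNT, an integrin ligand, 1.51 ± 0.14. NPNT was highest in CA3 (88.4 CPM, with 73.2 in the DG and 34.5 in CA1), and CA1 alone was below the fold threshold (log2FC 0.674). Outside both sides NPNT reached a mean of 384 CPM in the pituitary. Of 12 CA2 and CA3 markers, 5 were called higher and 4 lower (median 0.47). NTF3, which encodes neurotrophin 3, ranged from 11.8 to 20.9 CPM (median 13.4) against 0.149 to 0.436 CPM (median 0.325), a log2FC of 5.56 ± 0.16, and no libraries overlapped. It was listed as a marker of CA2 but was highest here in the DG, at 26.3 CPM, with 6.38 CPM in CA1 and 11.0 CPM in CA3. RGS14, a regulator of G protein signalling in CA2, had a log2FC of 2.13 ± 0.09 and means of 140, 234 and 306 CPM in the DG, CA1 and CA3, and KCNQ5, a potassium channel, had a log2FC of -1.46 ± 0.09.

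Of 9 CA1 markers tested, 2 were called higher and 2 lower (median 0.35). FIBCD1 ranged from 8.96 to 36.9 CPM (median 22.8) against 0.708 to 1.34 CPM (median 1.01), with a log2FC of 4.41 ± 0.25. Its means were 4.03 CPM in the DG, 31.2 in CA1 and 38.4 in CA3, so CA1 was not the highest. The marker level of the 9 genes had a median of 4.49 in CA1 and 4.565 in CA3, so as a list they did not set CA1 apart from CA3. NDST4, a heparan sulfate modifying enzyme, had a log2FC of 1.12 ± 0.14 and means of 3.40 CPM in the DG, 19.3 in CA1 and 9.96 in CA3. Its call ended with CA1 left out of the sum (log2FC 0.28, FDR 0.344) and with limma (0.82). WFS1, the wolframin gene, was lower in the hippocampus (-1.34 ± 0.09), as was MPPED1 (-1.40 ± 0.13), which had 4.48 CPM in the DG and a log2FC of -0.94 with the DG left out. In the fit of the single sub-regions, 926 genes were called higher and 1162 lower in the DG (6.1% and 7.66%, together 13.8% of 15174). In CA1 793 were higher and 794 lower (5.23% and 5.23%, together 10.5%), and in CA3 827 and 879 (5.45% and 5.79%, together 11.2%). Without Rhesus 8 and Rhesus 11 the counts were 915 and 1126 in the DG, 834 and 784 in CA1 and 825 and 873 in CA3, and 713 genes rather than 732 differed among the sub-regions. Without Rhesus 2 the counts were 928 and 1259 in the DG, 818 and 797 in CA1 and 823 and 908 in CA3, and 921 genes differed among the sub-regions, the highest number with 1 animal left out. Oligodendrocyte markers differed among the sub-regions as well, and the summed level of the 7 oligodendrocyte markers was 1531 to 3134 CPM in the DG, 3437 to 8659 CPM in CA1 and 3977 to 9767 CPM in CA3. Its part in the differences among sub-regions was not tested.

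Among glutamate receptors, AMPA and kainate subunits were called in both directions. Of 18 ionotropic subunits tested, 2 were called higher, 3 lower and 13 were not called, with a median log2FC of -0.24. Over all genes 6.23% were called higher and 7.28% lower. GRIA1, the AMPA receptor subunit GluA1, ranged from 991 to 1199 CPM (median 1085) in the hippocampus and from 210 to 269 CPM (median 253) in the neocortex, a log2FC of 2.14 ± 0.04 (FDR 2.96e-13). GRIA4, the subunit GluA4, ranged from 24.9 to 30.0 CPM (median 29.02) against 115 to 137 CPM (median 124), a log2FC of -2.13 ± 0.05. In both cases the libraries of the sides did not overlap. Among kainate receptor subunits, GRIK4 was higher (1.00 ± 0.06) and GRIK3 lower (-1.93 ± 0.17). The low-count NMDA receptor subunit GRIN3B was lower (-1.35 ± 0.25), a call that ended with the DG left out (-0.91) and with limma (-0.89). Of 8 metabotropic receptors, GRM8 (-2.55 ± 0.11) and GRM4 (-1.29 ± 0.07), both inhibitory presynaptic receptors, were called lower and 6 were not called.

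Of 13 subunits of the GABA-A receptor, the main fast inhibitory receptor of the brain, 2 were called higher, 5 lower and 6 were not called (median -0.50). GABRA5, the subunit of extrasynaptic receptors that mediate tonic inhibition, ranged from 466 to 662 CPM (median 553) against 102 to 171 CPM (median 118), a log2FC of 2.15 ± 0.06. The sums did not overlap. GABRB2 was lower (-1.66 ± 0.15), and so were GABRD (-1.15 ± 0.07), GABRA4 (-1.13 ± 0.07) and the rare GABRA6 (-1.25 ± 0.20), while GABRG3 was higher (1.10 ± 0.10). The call of GABRA6 ended against the parahippocampal gyrus (-0.86) and with limma (-0.97). Among 27 kinases, phosphatases and scaffolds of synaptic plasticity, 3 were called higher, 3 lower and 21 were not called (median 0.10), beside 6.23% higher and 7.28% lower over all genes. HPCA, the calcium sensor hippocalcin, ranged from 871 to 1252 CPM (median 997) against 170 to 331 CPM (median 219), a log2FC of 2.19 ± 0.06 without overlap of the sums. HOMER3 (2.18 ± 0.12) was higher, and PRKCB (-1.87 ± 0.10), HOMER1 (-1.33 ± 0.07) and CAMK2G (-1.21 ± 0.05) were lower.

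Immediate early genes are induced in neurons within minutes of activity. Of 11 tested, 6 were called lower, 2 higher and 3 were not called, with a median log2FC of -1.02. EGR2 ranged from 1.43 to 9.34 CPM (median 2.78) against 15.0 to 33.3 CPM (median 22.9), a log2FC of -2.87 ± 0.18, and NR4A1 from 4.80 to 12.3 CPM (median 5.98) against 32.9 to 93.6 CPM (median 41.1), a log2FC of -2.74 ± 0.15. Neither overlapped between the sides. NPAS4 (-2.22 ± 0.19), FOS (-1.93 ± 0.16), FOSB (-1.49 ± 0.09) and ARC (-1.02 ± 0.13) were the others. BDNF, the neurotrophin, went the other way, from 77.6 to 105 CPM (median 85.6) against 27.7 to 41.4 CPM (median 35.4), a log2FC of 1.35 ± 0.07, and NR4A3 was higher by 1.29 ± 0.12.

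Of 19 genes of inhibitory interneurons tested, 8 were called lower, 1 higher and 10 were not called (median -0.79). PVALB, the parvalbumin of fast-spiking basket cells, ranged from 3.32 to 6.51 CPM (median 5.53) against 40.4 to 60.8 CPM (median 49.1), a log2FC of -3.28 ± 0.09 without overlap of the sums. The cortical means of PVALB ran from 5.69 CPM in the temporal polar gyrus to 154 CPM in the posterior superior occipital gyrus, and the lowest of them was below the mean of CA3, 6.99 CPM. CRH (-2.07 ± 0.08), VIP (-1.96 ± 0.10) and the vesicular GABA transporter SLC32A1 (-1.47 ± 0.05) were also lower, as were the GABA synthesis genes GAD2 (-1.27 ± 0.04) and GAD1 (-1.04 ± 0.04). LAMP5, a marker of neurogliaform cells that pyramidal and granule cells can also express, was higher (1.47 ± 0.15, with 0.89 and no call against the parahippocampal gyrus), with a mean of 169 CPM in the DG and 79.8 and 77.8 CPM in CA1 and CA3. The pan-neuronal markers differed by -0.80 in the same sums, and their part in these counts was not tested. Called lower among them were the RNA-binding protein gene ELAVL4 (-1.36 ± 0.06), the neurofilament NEFH (-1.57 ± 0.08) and the vesicular glutamate transporter SLC17A6 (-2.26 ± 0.14).

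Of 24 neuropeptide receptors, 8 were lower and 3 higher, with 13 not called (median -0.32). MCHR1, the other receptor for melanin-concentrating hormone, was lower like MCHR2. MCHR1 was at 1.67 to 5.38 CPM (median 2.65) against 20.1 to 28.98 CPM (median 23.6), a log2FC of -2.95 ± 0.14. OPRM1, the mu opioid receptor, had a log2FC of -2.52 ± 0.22. NPY2R, a presynaptic receptor for neuropeptide Y, was higher, at 11.1 to 24.7 CPM (median 16.1) against 1.46 to 2.76 CPM (median 1.74), a log2FC of 3.10 ± 0.10. The sums did not overlap for MCHR1, OPRM1 or NPY2R.

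Of 34 receptors for monoamines and acetylcholine, 16 were called lower, 6 higher and 12 were not called (median -0.68). HTR1B (-3.49 ± 0.24) and HTR2A (-2.18 ± 0.08), both serotonin receptors, were lower, and HTR2A ranged from 20.2 to 29.8 CPM (median 24.9) against 94.3 to 131 CPM (median 111) with no overlap of libraries. HTR1A (1.39 ± 0.12) and HTR2C (1.42 ± 0.13) were higher. Dopamine receptors DRD1 (-2.19 ± 0.13) and DRD5 (-2.46 ± 0.26) were lower. Nicotinic subunits split in a similar way, as CHRNB4 (5.28 ± 0.19), CHRNA3 (1.98 ± 0.18) and CHRNA5 (1.62 ± 0.14), which are neighbours in a gene cluster and assemble into common receptors, were higher, whereas CHRNA6 (-3.09 ± 0.15), CHRNA2 (-1.80 ± 0.10), CHRNA7 (-1.37 ± 0.07) and CHRNA4 (-1.32 ± 0.16) were lower. CHRNB4 ranged from 1.14 to 4.07 CPM (median 2.41) against 0.0392 to 0.107 CPM (median 0.0473).

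**Figure D5:**
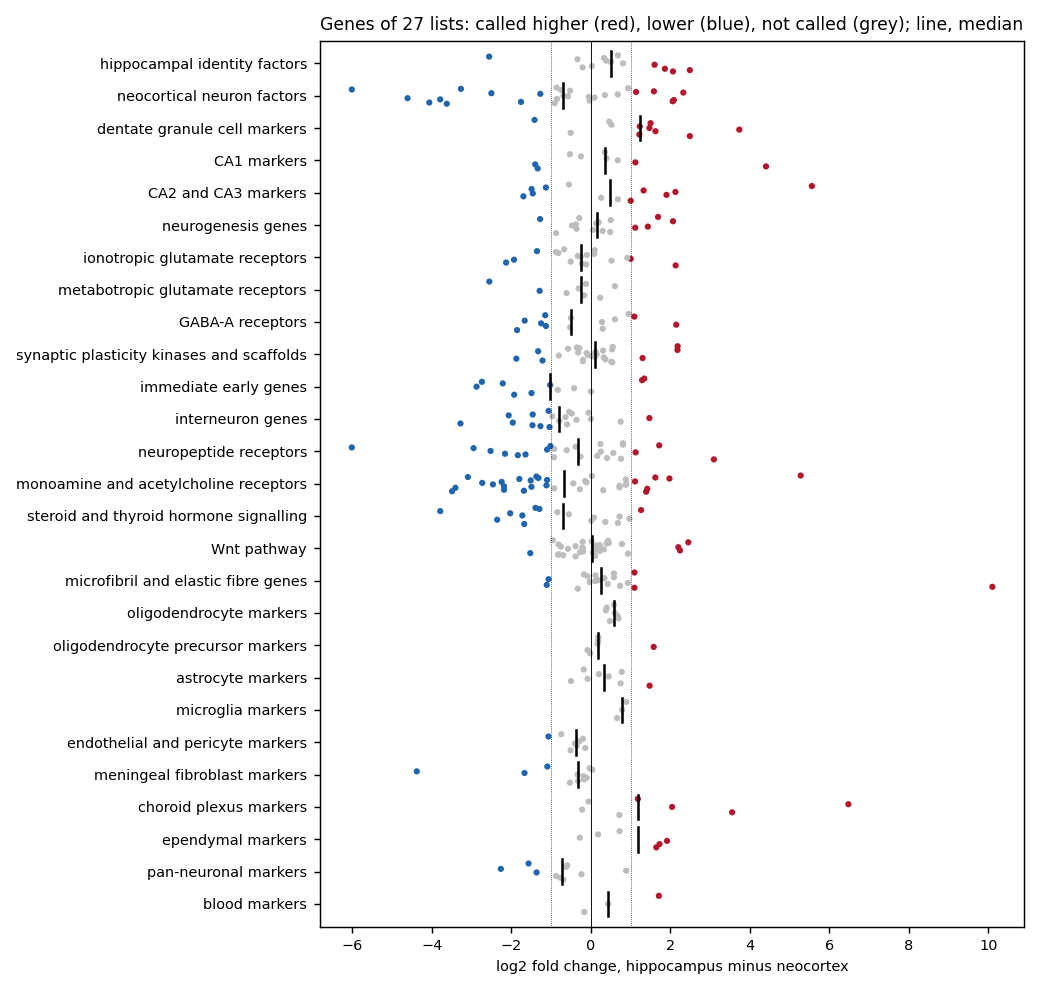
Log2 fold change, hippocampus minus neocortex (horizontal axis), of the tested genes of 27 lists (rows). Red points were called higher, blue points lower and grey points not called, black bars are list medians and dotted lines mark 2-fold. The immediate early genes have a median of -1.02 and the dentate granule cell markers of 1.23, and MFAP5 is the point at 10.11.

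Of 16 genes of steroid and thyroid hormone signalling tested, a list that also holds retinoid and orphan receptors, 7 were called lower, 1 higher and 8 were not called (median -0.70). The glucocorticoid receptor NR3C1 ranged from 12.5 to 28.4 CPM (median 23.4) against 47.95 to 88.0 CPM (median 74.5), a log2FC of -1.68 ± 0.08, and the sums did not overlap. The mineralocorticoid receptor NR3C2, known for its abundance in hippocampal neurons, had a log2FC of 0.68 ± 0.07 (FDR 9.73e-07), below the fold threshold. FKBP5, a chaperone of the glucocorticoid receptor, was higher (1.27 ± 0.10). The thyroid hormone receptor THRB (-1.72 ± 0.12), the retinoic acid receptor RARB (-2.03 ± 0.07) and the orphan receptor ESRRG (-2.36 ± 0.07) were lower.

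In the Wnt pathway, which patterns the hippocampal primordium, 3 of 31 tested genes were called higher, 1 lower and 27 were not called (median 0.02), a share called close to the 13.5% over all genes. RSPO3, a secreted enhancer of Wnt signalling, ranged from 8.54 to 27.3 CPM (median 15.9) against 2.20 to 4.41 CPM (median 2.87), a log2FC of 2.45 ± 0.16. Its receptor LGR5 (2.20 ± 0.11) and the Wnt receptor FZD7 (2.24 ± 0.09) were higher too, while the ligand WNT10B was lower (-1.52 ± 0.09). RSPO3 was highest in CA1 (25.4 CPM, with 9.31 in the DG and 17.6 in CA3), and LGR5 in the DG (19.7 CPM, with 8.29 in CA1 and 8.97 in CA3). Apart from MFAP5, 17 genes of microfibrils and elastic fibres were tested, of which the microfibril protein MFAP4 (1.10 ± 0.20) and the crosslinking enzyme LOXL1 (1.10 ± 0.18) were higher, and FBN2 (-1.11 ± 0.17) and EFEMP2 (-1.06 ± 0.05) lower. The call of MFAP4 ended without Rhesus 3 (log2FC 0.95) and against the temporal and limbic cortex (0.88). The call of LOXL1 ended against the parahippocampal gyrus (0.61, FDR 0.146), against the temporal and limbic cortex (0.88), with the DG left out (0.93) and with limma (0.95). The call of FBN2 ended with the DG left out (-0.88) and with limma (-0.98). Over the 18 genes with MFAP5 the median was 0.26.

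Of 16 neurogenesis genes tested, 4 were called higher, 1 lower and 11 were not called (median 0.17). Besides NEUROD1 these were TFAP2C (1.69 ± 0.10), TOP2A (1.44 ± 0.17) and MKI67 (1.12 ± 0.43), and the last pair, genes of dividing cells, were at 0.597 to 1.37 CPM and 0.0270 to 0.437 CPM in the hippocampus. The sums of MKI67 overlapped with those of the neocortex, which were 0.0360 to 0.180 CPM. STMN1, a microtubule destabilizer of young neurons, was lower (-1.28 ± 0.05).

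Genes of non-neuronal cells were also examined 1 by 1. GFAP, the intermediate filament of astrocytes, ranged from 486 to 1682 CPM (median 1046) in the hippocampus and from 238 to 431 CPM (median 361) in the neocortex, a log2FC of 1.48 ± 0.08, and it was 1 of 8 astrocyte markers called. None of 7 oligodendrocyte markers and none of 3 microglia markers was called, and the median log2FC of the lists was 0.58 and 0.79. VCAN, of the precursor list, was higher (1.58 ± 0.05). Of 6 ependymal markers tested, the cilium genes DNAH11 (1.92 ± 0.16), DNAH9 (1.73 ± 0.07) and FOXJ1 (1.65 ± 0.13) were called higher. The other 3 were not called, and the log2FC of the list ran from -0.28 to 1.92 (median 1.19). Of 7 choroid plexus markers, OTX2, the folate receptor FOLR1 (3.56 ± 0.35), PRLR (2.05 ± 0.30) and TRPM3 (1.18 ± 0.08) were called higher, and CLIC6 had a log2FC of -0.22 ± 0.38 (FDR 0.643). FOLR1 varied from 0.751 to 7.26 CPM (median 2.16) between animals, and the summed level of the 7 genes was 50.7 to 135 CPM in the DG, 23.5 to 63.9 CPM in CA1 and 30.5 to 131 CPM in CA3. Among meningeal fibroblast markers ISLR (-4.38 ± 0.31), FMOD (-1.67 ± 0.21) and CRABP2 (-1.09 ± 0.18) were lower, among vascular markers RGS5 (-1.07 ± 0.07) was lower, and CD3E of the blood list was higher (1.71 ± 0.11). The call of RGS5 ended with the DG left out (-0.85) and against the parahippocampal gyrus (-0.86), that of TRPM3 with the DG left out (0.90), and that of CRABP2 with CA1 left out (-0.98) and with limma (-0.91).

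Single libraries separated the sides completely for 201 of the 18638 genes (1.08%). For 68 of them (0.365%) each of the 24 hippocampal libraries lay above each neocortical one, and for 133 (0.714%) below. Of the 12 leading higher genes 7 belonged to the former, namely EHF, NEUROG2, BEST3, FAM216B, MAB21L2, AQP3 and NPFFR2. Of the 12 leading lower genes 3 belonged to the latter, namely TESPA1, KCNS1 and FAP. The leading genes were chosen by their folds in these same libraries, so their counts cannot be weighed against the shares over all genes. Other named genes with separated libraries were NTF3, NEUROD1, GRIA1 and DNAH9 on the higher side and CUX2, MEF2C, GRIA4, HTR2A, CRH, RARB, PRKCB and GAD1 on the lower side. By this definition, no library of any cortical sub-region, the parahippocampal gyrus included, lay within the range of the hippocampal libraries for these genes. The highest cortical mean of NTF3 was that of the parahippocampal gyrus, 0.514 CPM, and that of AQP3 was in the anterior cingulate gyrus, 4.56 CPM.

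Few genes were called in the main test of whether the difference between the sides depended on age. In a test of the interaction of side with age, with 4 animals over 5 years and 4 younger ones, 7 of 18638 genes (0.0376%) had an FDR below 0.05, and 2362 had an unadjusted p below 0.05. All 7 had a higher hippocampus-to-neocortex ratio in the older animals. SERPINA3, an acute phase protease inhibitor made by reactive astrocytes, had a log2 ratio of 2.17 to 2.95 (median 2.48) in the older and of 1.24 to 1.89 (median 1.45) in the younger animals, without overlap (interaction 1.00, FDR 0.0402). Its mean was 19.4 CPM in the hippocampus of the older and 7.99 CPM in that of the younger animals. ARC had log2 ratios of -0.80 to -0.39 (median -0.58) and -1.53 to -1.31 (median -1.41), and here the neocortical means differed more, 57.7 CPM in the older and 96.2 CPM in the younger animals (interaction 0.84, FDR 0.0389). The natriuretic peptide gene NPPA (2.24), CCDC80 (0.91), ANXA2 (0.68), the adhesion molecule ALCAM (0.52) and an unnamed gene, ENSMMUG00000032579 (1.07), were the others. NPPA had neocortical means of 1.19 CPM in the older and 4.93 in the younger animals, with 10.1 and 9.79 CPM in the hippocampus. CCDC80 likewise had 5.03 and 9.26 CPM in the neocortex, with 25.2 and 24.5 CPM in the hippocampus. ALCAM differed more in the hippocampus (152 and 116 CPM) than in the neocortex (154 and 168 CPM). The 7 genes were named for passing this test. The number called depended on single animals and on the test. It was 0 without Rhesus 4, Rhesus 7 or Rhesus 8, 1 without Rhesus 3, 4 without Rhesus 6, 44 without Rhesus 2 and 244 with DESeq2. How many genes depended on age was therefore not settled. For sex, edgeR called 0 genes, with 497 at an unadjusted p below 0.05, and DESeq2 called 3.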

How the data were processed

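Gene counts of 272 ribosomal RNA-depleted libraries were used. Per the labels and the study's methods, the authors trimmed the samples of poor read quality with Trim Galore 0.4.4, mapped reads to Mmul_8.0.1 with HISAT2 2.0.5 and counted them on Ensembl genes with HTSeq 0.6.1; the deposited values are raw counts without normalization. How the counter treated strand and reads shared by genes is not given in the sources used here, so genes that overlap, lie antisense to each other or have close copies have uncertain counts. Symbols for 17572 of 30807 gene IDs came from a reference table, and 2340 genes share a symbol.

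Counts were summed per animal and side and tested in R 4.3.3 with edgeR 4.0.16 (TMM, filterByExpr, quasi-likelihood F test, animal as block, Benjamini-Hochberg FDR). SE is the absolute log2FC divided by the square root of F. A gene was called at FDR below 0.05 and an absolute log2FC above 1, and interactions at FDR below 0.05. DG, CA1, CA3 and the neocortical sums entered 1 fit of 4 groups. Both sums of a pair came from the same animal, and their deviations from the side means correlated at 0.583 to 0.822 over genes. Exact sign-flip tests and summaries were computed in Python 3.11.15 (scipy 1.17.1, numpy 2.4.6, pandas 2.3.3), and plots drawn with matplotlib 3.10.9. Intervals of pooled ratios are exact binomial (95%) and, like the floor of 3 counts, cover counting error only.

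On simulated counts with 200 genes changed 4-fold, the main test recovered 200 with 2 other calls (18655 genes). The changed genes were taken from those with ample hippocampal counts, and all genes had the same dispersion and no animal effects. Recovery of low-count genes was therefore not examined. The alternatives were DESeq2 1.42.0, its size factors, limma 3.58.1 on mean log2 CPM, detection above 1 count in 3 libraries, no filter, no block, a log2FC above 2, other cortical sides, each sub-region or animal left out, library totals and a pseudocount of 0.1. The regions, the 27 gene lists and the tests were chosen with earlier results of these data known. Named genes are MFAP5, NEUROD1 and MCHR2, the 12 per direction with the largest absolute log2FC (called, unshared symbol, at least 1 CPM on the higher side, same direction in 8 of 8 animals) and up to 4 called members of each list, plus those that a count needs. Results of 3 members of the lists are not reported here. The 272 samples came from 8 animals, regions of 1 animal are not independent, and only animals were counted as replicates. The ATAC-seq samples, the assembled transcripts and the other 136 RNA-seq samples were not analysed here, except that the latter gave the highest level outside both sides. The midbrain had no gene counts and was not among them.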

Additional observations from a re-analysis of the deposited data

Results flagged for a closer look

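Of 237 groups of 8 values examined for named genes, 20 had a highest or lowest animal far from the other 7 by Dixon's criterion at 95%, where chance alone flags about 1 in 20 groups. The explanations of these values were not tested. In the hippocampal sums, CROCC2 was lowest in Rhesus 3 (3.79 CPM, with 7.67 to 9.10 CPM in the others). The highest value was in Rhesus 3 for EGR2 (9.34 CPM), MEIS2 (21.9 CPM) and GRIN3B (0.637 CPM), in Rhesus 6 for MEPE (2.39 CPM) and FMOD (0.807 CPM), in Rhesus 8 for GRM8 (5.74 CPM), in Rhesus 11 for FREM3 (0.405 CPM) and in Rhesus 7 for MYL10 (0.116 CPM).

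In the neocortical sums, Rhesus 10 was highest for FOS (93.9 CPM, with 27.8 to 56.5 CPM in the others), NR4A1 (93.6 CPM, with 32.9 to 54.6 CPM) and MFAP5 (0.137 CPM, with at most 0.0226 CPM). Rhesus 11 was highest for CROCC2 (0.506 CPM) and GPR50 (0.365 CPM), Rhesus 6 for TFAP2C (2.20 CPM), Rhesus 8 for OTX2 (0.0845 CPM) and Rhesus 4 for NEUROG2 (0.0262 CPM). Among single sub-regions, CA3 of Rhesus 8 stood out for OTX2 (9.33 CPM, with 0.321 to 1.89 CPM in the other CA3 libraries), CA1 of Rhesus 11 for NPFFR2 (26.7 CPM, with 6.37 to 12.98 CPM) and CA3 of Rhesus 4 for GPR50 (6.43 CPM, with 0.829 to 3.01 CPM). CA3 of Rhesus 8 and CA1 of Rhesus 11 were also the CA libraries with the lowest CA1 marker levels (3.36 and 3.45).

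By the interaction test, the ratio of hippocampus to neocortex was higher in older than in younger animals for CCDC80 (0.91 on the log2 scale), NPPA (2.24), ALCAM (0.52), SERPINA3 (1.00), ANXA2 (0.68), ARC (0.84) and ENSMMUG00000032579 (1.07).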

How the results depend on the processing

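The number of genes called in the main comparison stayed within 1.5 times of the reported one under DESeq2, its size factors, both other filters, the temporal and limbic cortex as the cortical side and each sub-region left out, and lay between 2499 and 2568 with 1 animal left out (1143 to 1199 higher and 1321 to 1369 lower). It moved further with limma on mean log2 CPM (1588 genes, 698 higher and 890 lower), with a log2FC above 2 (784, 319 and 465) and, for the lower genes, against the parahippocampal gyrus (844). Without the pairing by animal (no replicate block) 1134 genes were higher and 1298 lower, and 629 differed among the sub-regions, so the block moved none of these counts by over 1.5 times. For the age interaction the study's detection rule gave 144 genes, DESeq2 244 and leaving out 1 animal 0 to 44, and for sex the detection rule gave 2 genes and DESeq2 3. The causes were not tested. Leaving out the neocortical libraries that stood apart (1160 higher and 1319 lower), and Rhesus 8 and Rhesus 11 for the sub-regions, was chosen after seeing the data. Of 1985 alternative values of the 100 genes chosen by the naming rule 1962 kept their direction and call, 23 of 13 genes lost the call and 0 reversed, and the 24 genes with the largest folds lost none. LOXL1 fell to 0.61 and NEFH to -0.70 against the parahippocampal gyrus. With a pseudocount of 0.1 the marker differences kept their directions, at 1.4 for choroid plexus and -0.73 for meningeal fibroblast markers. Without Rhesus 2, 921 genes differed among the sub-regions. The motif window planned as an alternative was not run. Depth limited genes with few hippocampal counts, whose folds are given with counting intervals.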
